A study of Mus musculus with 2 samples.

Results

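Cytotoxic T cells of the mouse colon lamina propria were selected from single-cell RNA sequencing of 1 wild-type (WT) and 1 knockout (KO) library. A cell was taken as cytotoxic when it carried at least 2 unique molecular identifiers (UMIs, each marking 1 captured transcript) of Cd3e, Cd3d and Cd3g together, at least 2 of Cd8a, Gzma and Gzmb together, and 0 of Cd79a, C1qa, Xcr1 and Clec9a. The rule was met by 132 of 5111 filtered cells, 124 in the WT and 8 in the KO library. These counts of Cd3, Cd8a and granzyme transcripts chose the cells, so the levels of those genes describe the selection. The rule was also written with results of these data known.

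The study asked how loss of a long non-coding RNA, lncLy6c, changes macrophages of the colon. WT mice were compared with mice whose lncLy6c gene, given in the labels as LncRNA17Rik, had been deleted with CRISPR-Cas9 by guides placed before exon 1 and after exon 2 on a C57BL/6J background. Each genotype was a pool of 8-week-old male mice made into 1 library, with Percoll enrichment, staining for sorting and removal of 7-AAD-stained dead cells in both. The labels call the sorted cells cd11b+, a myeloid surface protein encoded by Itgam, so T cells were not the population that was sought. An Itgam UMI was found in 26 of the 124 WT cytotoxic T cells, in 3 of 64 other WT T cells and in 3 of the 8 KO cells that met the rule. B cells held one in 96 of 404 WT and 13 of 105 KO cells, and the source of these UMIs was not tested.

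The WT library held 2597 filtered cells with a median of 5073 UMIs, and the KO library 2514 with a median of 6564.5. No feature of the tables is named LncRNA17Rik or lncLy6c, so the knockout label could not be checked by the deleted gene. The libraries shared 1 cell barcode. With 1 library per genotype there was no test between WT and KO. All intervals below are exact 95% intervals that cover counting error only, and a gene is counted as higher or lower when its level differed by at least 2-fold with a counting interval on the same side of no change.

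Cytotoxic T cells kill target cells by releasing granules that hold granzymes, which are proteases, and perforin, which forms pores. In the gut they lie mostly in and beneath the epithelium, are held there by integrins such as CD103, encoded by Itgae, and carry natural killer receptors. They include conventional cells with an alpha-beta T cell receptor and a CD8 alpha-beta coreceptor, and unconventional cells with CD8 alpha-alpha or a gamma-delta receptor. Runx3, the transcription factor followed by the study in macrophages, is also known for its part in CD8 T cell identity and in the expression of Itgae.

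Cells that met the rule made up 4.77% of the WT library (95% interval 3.99 to 5.67) and 0.318% of the KO library (0.137 to 0.626). The KO cells are counted by the rule alone, and their other transcripts are described below. The log2 ratio of the KO to the WT share was −3.91 (−5.15 to −2.88). With 1 UMI of Cd8a, Gzma and Gzmb in place of 2, the shares were 5.35% and 0.756% and the ratio −2.82 (−3.60 to −2.13). T cells without a UMI of Cd8a, Gzma or Gzmb, called other T cells here, numbered 64 in each library, a share of 2.46% (1.90 to 3.14) in WT and 2.55% (1.97 to 3.24) in KO. Among all T cells, 61.1% (54.0 to 67.8) of 203 cells in WT and 9.64% (4.25 to 18.1) of 83 in KO met the rule. With 1 UMI the values were 68.5% and 22.9%. Cells with no Cd3 UMI and at least 2 UMIs of the natural killer genes Ncr1 and Klrb1c were 15 in WT (0.578%) and 19 in KO (0.756%), with overlapping intervals. The intervals of the libraries were thus apart for the T cells that met the rule and overlapped for the other T cells and the Cd3-negative cells. B cells moved in the same direction, from 404 cells (15.6%) in WT to 105 (4.18%) in KO, and the part of cell capture and sorting in these shares was not tested.

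**Figure D1:**
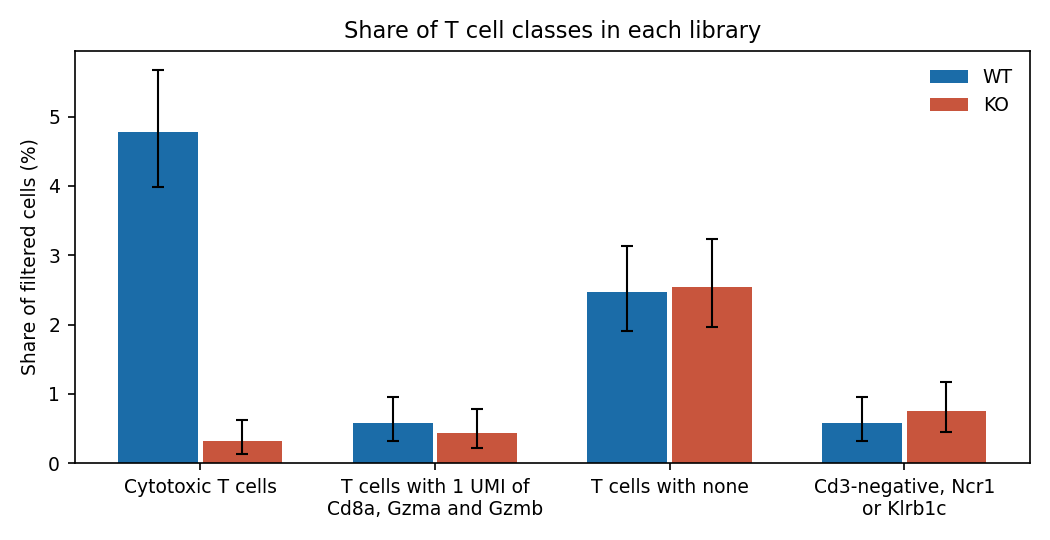
Share of filtered cells (%) in the WT and KO libraries. Classes are cells that met the rule (cytotoxic T cells) and T cells with 1 UMI of Cd8a, Gzma and Gzmb. T cells with none and Cd3-negative cells with Ncr1 or Klrb1c are also shown. Bars are the share in 1 library and error bars the exact 95% interval. The share that met the rule was 4.77% in WT and 0.318% in KO, while the intervals of the other classes overlapped.

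The share could depend on depth, so each cell was also thinned to 2000 UMIs. After thinning, 5.39% of 1966 WT cells and 0.257% of 1947 KO cells met the rule, and unthinned the same cells gave 6.26% and 0.411%. Cells below that depth were left out, 631 in WT and 567 in KO. The UMIs of Cd8a, Gzma and Gzmb on which the threshold was set are given as a description. In WT, 55 T cells held at least 100 UMIs of Cd8a, Gzma and Gzmb and 41 held 10 to 99, whereas no KO T cell held 10 or more. Just inside the threshold, 6 WT cells and 2 KO cells had exactly 2 such UMIs. Just outside it, 15 WT and 11 KO T cells had 1, and 4 WT and 2 KO cells missed the rule with a single Cd3 UMI. The exclusion genes alone removed 13 WT cells and 1 KO cell.

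**Figure D2:**
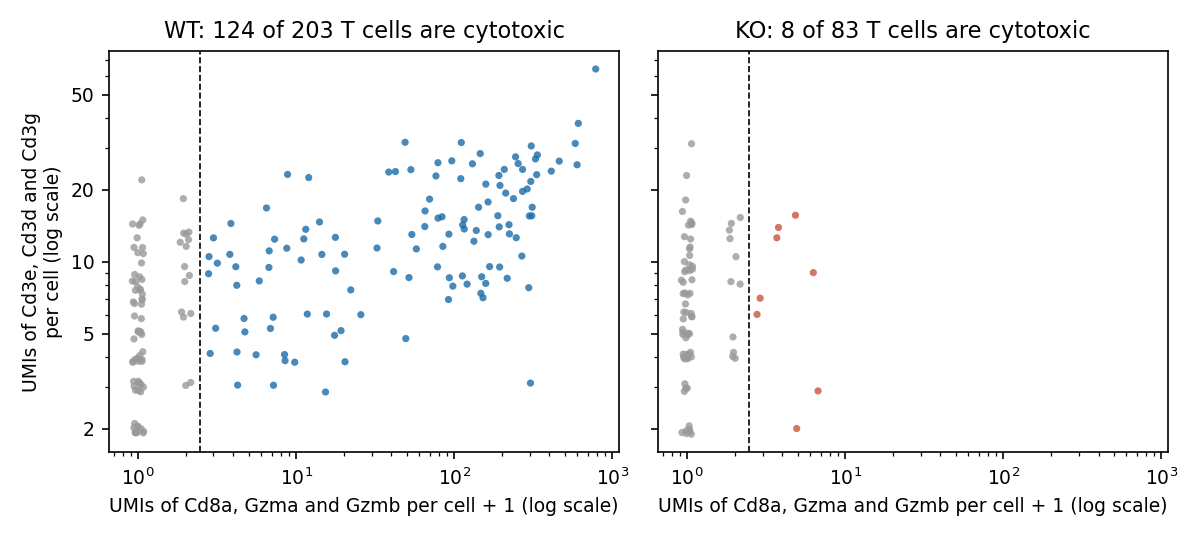
Each point is 1 T cell, placed by its UMIs of Cd8a, Gzma and Gzmb plus 1 (x axis, log scale) and its UMIs of Cd3e, Cd3d and Cd3g (y axis, log scale), with slight random spread so that points do not hide each other. The dashed line is the threshold of 2 UMIs. Coloured points are T cells that met the rule and grey points are T cells that did not. WT cells extend past 100 UMIs and KO cells stay below 10.

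Free RNA from lysed cells can add transcripts to any droplet. A Gzma UMI was found in 60 of 404 WT B cells (14.9%, median depth 8992.5 UMIs), which should lack the gene, and in 2 of 105 KO B cells (1.90%, median depth 4746 UMIs). At least 2 UMIs of Cd8a, Gzma and Gzmb were present in 19 WT B cells (4.70%) and in 0 of 105 KO B cells (exact upper limit 3.45%). No B cell of either library held a Cd8a UMI (upper limits 0.909% of 404 and 3.45% of 105 cells). The highest Gzma count in a WT B cell was 6. Immunoglobulin transcripts were found in all 124 WT cytotoxic T cells, at 1321 CPM (UMIs scaled to a common total, counts per 1e+06), and in 3 of the 8 KO cells, at 82.3 CPM. The part of free RNA in the WT cells near the threshold was not tested.

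Granzyme A, a protease encoded by Gzma, is a gene of the rule. It was found in 100 of the 124 WT cytotoxic T cells with 13132 UMIs, a level of 15899.5 CPM (15628.7 to 16173.8), and the cell with most held 4.87% of them. In the 8 KO cells there was 1 Gzma UMI, 13.7 CPM. Granzyme B, encoded by Gzmb and known for triggering apoptosis in target cells, had 2271 CPM in WT, in 100 cells, and 192 CPM in KO, in 3 cells. Cd8a, the alpha chain of the CD8 coreceptor, had 404 CPM in WT, in 77 cells, and 192 CPM in KO, in 5 cells. The WT cytotoxic T cells held 82.4% of all Gzma UMIs, 77.6% of all Gzmb UMIs and 83.9% of all Cd8a UMIs among the filtered WT cells. In the KO library the same shares were 0.0726%, 3.50% and 37.8%.

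The upstream sequences of these granzyme genes are shown because both genes are part of the rule and because Runx3 is the factor that the study follows. Gzma (ENSMUSG00000023132) lies on the minus strand of chromosome 13 from 113093825 to 113100981, and Gzmb (ENSMUSG00000015437) on the minus strand of chromosome 14 from 56258838 to 56262260 (GENCODE M21, GRCm38). The windows are the 250 bases before the RefSeq start site (GRCm38.p6), chr13:113100982-113101231 for Gzma and chr14:56262335-56262584 for Gzmb, and overlap no GENCODE exon. Capitals mark the core of the RUNX motif, TGTGGT, or its reverse complement ACCACA, searched on both strands.
Gzma: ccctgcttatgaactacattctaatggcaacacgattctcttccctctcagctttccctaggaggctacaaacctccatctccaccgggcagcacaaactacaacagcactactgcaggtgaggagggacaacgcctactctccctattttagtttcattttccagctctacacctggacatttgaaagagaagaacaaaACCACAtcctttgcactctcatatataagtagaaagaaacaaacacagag
Gzmb: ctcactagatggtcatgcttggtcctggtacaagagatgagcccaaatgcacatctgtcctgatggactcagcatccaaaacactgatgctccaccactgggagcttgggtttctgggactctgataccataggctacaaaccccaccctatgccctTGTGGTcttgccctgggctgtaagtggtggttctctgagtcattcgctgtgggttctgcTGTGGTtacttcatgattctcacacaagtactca
The Gzma window held 1 match and the Gzmb window 2. The windows of Nkg7 and Prf1, which overlap the genes' own exons and are not shown, held 1 each. Of all 32851 promoter windows of the same length, 14.0% held at least 1 match, and a match of these letters says nothing of binding.

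The WT cytotoxic T cells were mixed in their transcripts. All of Cd8a, Gzma and Gzmb were detected in 54 of 124 cells (43.5%), both granzymes without Cd8a in 31 (25.0%), Gzmb alone in 11, Cd8a with Gzma in 10, Cd8a alone in 9, Gzma alone in 5 and Cd8a with Gzmb in 4. Cd8b1, the beta chain of CD8, was found in 18 cells, all with Cd8a, and Cd8a was found without Cd8b1 in 59 cells. Trac, the constant region of the alpha chain of the T cell receptor, was detected in 81 cells (65.3%) and Trdc, that of the delta chain, in 44 (35.5%). Trac without Trdc was seen in 58 cells, Trdc without Trac in 21, both in 23 and neither in 22. Cd4 was found in 13 cells and Foxp3, the factor of regulatory T cells, in 8, each of which also held Gzmb. A transcript that was not seen in a cell may have been missed at this depth, so these are counts of detection and not of cell types. After thinning to 2000 UMIs, Cd8a was detected in 44.3%, Trdc in 26.4% and Trac in 45.3% of the cells that met the rule.

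Compared with the 64 other T cells of the WT library, the 124 cytotoxic T cells held more transcripts of granule, residence and cell cycle genes and fewer of naive T cell genes. Of 5901 genes tested, 343 were higher (5.81%) and 209 lower (3.54%), with a median log2 ratio of 0.03. The split was made on Cd8a, Gzma and Gzmb, so this comparison describes the selected cells and gives no test. The cytotoxic cells were also deeper, with a median of 5563.5 against 3885.5 UMIs.

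Of the other granule genes, 9 of 14 tested were higher and none lower, with a median log2 ratio of 1.56. Nkg7, a granule membrane protein needed for granule release, had 1143 CPM against 203 CPM, a log2 ratio of 2.49 (2.11 to 2.90). Ctsw, the protease cathepsin W, had 439.5 CPM against 89.4 CPM, and Ctsc, which activates granzymes, 145 CPM against 44.7 CPM. Serpinb9 and Serpinb6b, inhibitors of granule proteases, had log2 ratios of 1.96 (1.28 to 2.72) and 2.96 (2.10 to 3.98). Srgn, the proteoglycan on which granzymes are stored, was near equal at 1722 CPM against 1464 CPM. Gzmc had 234 UMIs in 17 WT cytotoxic T cells and 0 in the other T cells, a level at least 27.5-fold higher against a floor of 3 UMIs for the group, and 58.5% of those UMIs came from 1 cell. With 10 CPM added to both groups the Gzmc log2 ratio was 4.87, and 3.68 without that cell. Gzmk had 73.9 CPM in 25 cells against 6.87 CPM in 2 cells.

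Perforin, encoded by Prf1, was sparse in these cells. It had 21 UMIs in 18 of 124 cells, 25.4 CPM, against 1 UMI in the other T cells. The Cd3-negative cells with Ncr1 or Klrb1c of the same library held 90 Prf1 UMIs in 11 of 15 cells, 940 CPM, which put the cytotoxic T cells lower by a log2 ratio of −5.21 (−5.97 to −4.51). Gzma ran the other way, with 15899.5 CPM in the cytotoxic T cells and 5976 CPM in those Cd3-negative cells. The cytotoxic T cells and the Cd3-negative cells were near each other in Nkg7 (1143 and 1463 CPM) and Ctsw (439.5 and 449 CPM). Eomes, a factor of natural killer and memory CD8 T cells, had 4 UMIs in the cytotoxic T cells and 251 CPM in the Cd3-negative cells. Itgae was absent from the 15 Cd3-negative cells and had 665 CPM in the cytotoxic T cells, at least 21.2-fold higher against a floor of 3 UMIs. Gzma is a gene of the rule that chose the cytotoxic T cells, so its level in this pair of classes is a description, and Prf1, Eomes and Itgae were not used by the rule.

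Among chemokines, Ccl5, which attracts T cells and myeloid cells, was the highest, with 10122 CPM in 113 of the 124 WT cells against 467 CPM in the other T cells, a log2 ratio of 4.44 (4.19 to 4.69). Ccl3 and Ccl4 had 243 and 695 CPM against 10.3 and 55.0 CPM. Xcl1, which attracts cross-presenting dendritic cells, had 235 CPM against 110 CPM. Of 12 cytokine and chemokine genes tested, these 4 were higher and Il17a and Il10 lower. Ifng, the cytokine interferon gamma, was equal at 214 CPM and 220 CPM.

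Genes of tissue residence and of intraepithelial T cells were higher in 8 of 15 tested, with none lower and a median log2 ratio of 1.40. Itgae was found in 103 of 124 cells at 665 CPM against 79.0 CPM, a log2 ratio of 3.07 (2.47 to 3.74). Itga1, the collagen-binding integrin CD49a, had 391 CPM against 82.5 CPM. Jaml, which binds an adhesion molecule of epithelial cells, had 136 CPM against 41.2 CPM. Tyrobp and Fcer1g, signalling adaptors found in natural killer cells and in unconventional intraepithelial T cells, had 587 and 580 CPM against 99.7 and 134 CPM. Itgb7, the partner of Itgae, and Cd69 did not reach 2-fold, at 333 against 244 CPM and 724 against 839 CPM. Ccr9, the receptor that guides T cells to the gut, had 121 CPM against 24.1 CPM.

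Natural killer receptors were higher in 5 of 7 tested, Klrd1, Klre1, Klrk1, Klrc1 and Klra7. Klrd1, a subunit of the CD94 receptors, had 553 CPM against 131 CPM. Epithelial markers were seen beside this profile, at 195 CPM in 75 of 124 cytotoxic T cells and 113 CPM in 22 of 64 other T cells, and their part in it was not tested.

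T cell receptor genes split by receptor type. Trdc (268 against 110 CPM) and the gamma constant regions Tcrg-C1 (264 against 65.3 CPM) and Tcrg-C2 (128 against 37.8 CPM) were higher, while Trac was equal at 375 and 381 CPM. The costimulatory receptor Cd28 and the surface proteins Cd2, Cd5 and Cd6, which tune receptor signalling, were lower, with log2 ratios of −1.99 (−2.26 to −1.71), −1.84 (−2.33 to −1.35), −2.28 (−3.01 to −1.58) and −2.31 (−2.95 to −1.68). The other 11 of the 18 genes in that list did not reach the 2-fold limit in either direction. Of 9 helper and regulatory T cell genes tested, 5 were lower, among them Cd4 at 30.3 CPM against 141 CPM.

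Genes of naive and recirculating T cells were lower in 6 of 7 tested, with a median log2 ratio of −2.16. Ccr7, the lymph node homing receptor, had 12.1 CPM against 560 CPM, a log2 ratio of −5.53 (−6.62 to −4.62). Lef1 and Tcf7, factors of naive and memory T cells, had log2 ratios of −3.63 (−4.73 to −2.67) and −2.32 (−2.83 to −1.82). Il7r, the receptor for a survival cytokine, had 33.9 CPM against 158 CPM.

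Cell cycle genes were higher in 13 of 15 tested, with a median log2 ratio of 1.94. Mki67, a marker of dividing cells, had 179 CPM in 30 of 124 cytotoxic T cells against 24.1 CPM in 4 of 64 other T cells, a log2 ratio of 2.90 (1.82 to 4.24). Top2a, which untangles DNA in division, had 246 CPM against 48.1 CPM.

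Of 15 lineage transcription factors tested, 1 was higher (Tbx21) and 2 lower (Bach2 and Runx1). Tbx21, the factor T-bet, had 173 CPM against 61.9 CPM. Runx3 was found in 93 of 124 cells and was near equal at 224 CPM against 261 CPM, a log2 ratio of −0.22 (−0.61 to 0.18). Runx1, its relative, was lower at 71.4 CPM against 210 CPM. None of the 8 tested genes that the study ties to mitogen-activated protein kinase signalling and Runx3, and none of 17 dissociation stress genes, reached the limit in either direction.

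The 10 highest genes in this comparison, beyond the genes of the rule, were Gzmc, Ccl5, Pclaf, Ccl3, Klre1, Hist1h2ap, Ifitm1, Ccl4, Hist1h1b and Itgae. Pclaf, Hist1h2ap and Hist1h1b are genes of DNA replication. The 10 lowest were Ccr7, Tnfsf8, Il17a, Ramp3, Kbtbd11, Lef1, Tbc1d4, Rgs10, Gm8369 and Myb.

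**Figure D3:**
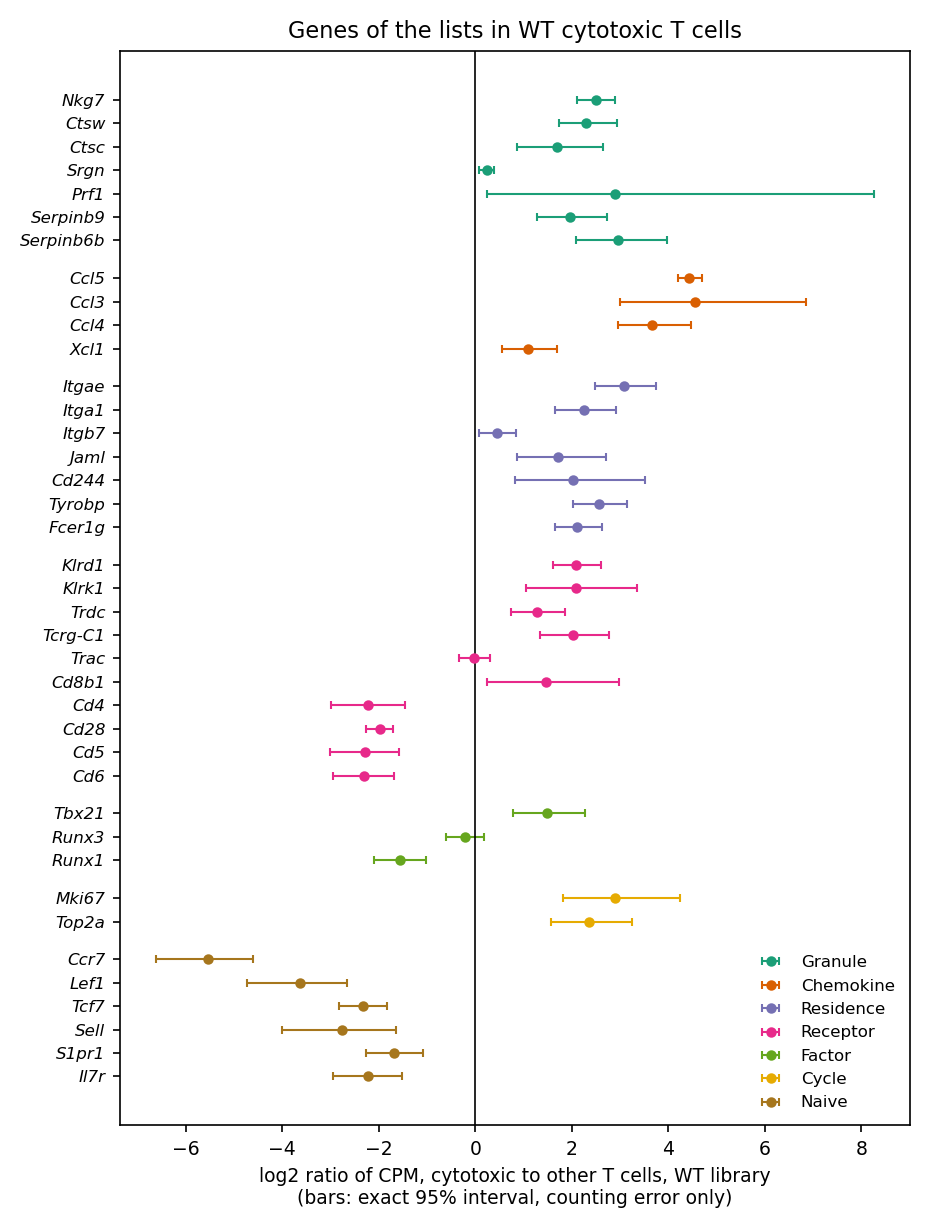
log2 ratio of CPM between cytotoxic and other T cells of the WT library (x axis) for genes of the lists (y axis), coloured by group. Points are the ratio of summed UMIs and bars the exact 95% interval. The plotted chemokine and cycle genes lie right of 0 and the plotted naive genes left of it, Srgn and Itgb7 lie near 0, and Trac and Runx3 span it.

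The WT cytotoxic T cells were next split by the receptor chain detected in them, 21 cells with Trdc and no Trac against 58 with Trac and no Trdc. A chain may have been missed in a cell, and the split was made after the data had been seen. Of 3838 genes tested, 71 were higher in the Trdc cells (1.85%) and 113 lower (2.94%), counts that include Trdc and Trac, on which the cells were split. Both sets entered through the Cd8a and granzyme threshold, so the levels of those genes only describe them. Gzma had 13897 and 11603 CPM, Gzmb 2003 and 1879 CPM, and Cd8a 477 and 374 CPM. Ccl5, which the rule did not use, did not reach 2-fold at 11020 and 8248 CPM. Cd8b1 was lower in the Trdc cells, at 3 UMIs against 39. Tcrg-C1, the partner chain of Trdc, had 557 against 59.4 CPM, a log2 ratio of 3.23 (2.54 to 3.97). Itgae was higher at 911 against 436 CPM, and Ccr9 at 202 against 59.4 CPM.

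In the same split, 4 of 10 cytokine and chemokine genes tested were lower in the Trdc cells (Il10, Ifng, Ccl3 and Ccl4), and 3 of 8 checkpoint and costimulatory receptors (Ctla4, Icos and Tnfrsf4). Ifng had 116 against 276 CPM and Ccl4 246 against 821 CPM. Ctla4, an inhibitory receptor, had 412 against 1169 CPM. Tnfrsf4, Il10, Cd5, Cd6 and Foxp3 had 0 UMIs in the 21 Trdc cells and 89, 52, 27, 30 and 25 UMIs in the 58 Trac cells. These UMIs came from few Trac cells, 11 for Tnfrsf4, 8 for Il10, 11 for Cd5 and 16 for Cd6. Foxp3 was held by 8 of all 124 WT cytotoxic T cells. For Tnfrsf4 the level was at least 10.6-fold lower against a floor of 3 UMIs, and for Cd5 at least 3.21-fold. Cd2 had 1 UMI against 58, a log2 ratio of −4.37 (−9.70 to −1.84).

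A split by Cd8a, also made after the data had been seen, set 77 WT cells with a Cd8a UMI against 47 without, which entered the selection through granzymes alone. Of 5093 genes tested, 202 were higher in the cells with Cd8a (3.97%) and 158 lower (3.1%), with Cd8a itself among the higher. Gzma (14849 and 18037 CPM) and Gzmb (2082 and 2656 CPM) are given as a description, since the cells without Cd8a had to hold granzyme UMIs. Ccl5 (9582 and 11219 CPM) and Itgae (647 and 702 CPM) did not reach 2-fold. Mki67 had 244 CPM in 22 of 77 cells against 47.8 CPM in 8 of 47, and 13 of 15 cell cycle genes were higher. The median depth was 5898 UMIs with and 5513 without Cd8a.

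Of 6 helper and regulatory T cell genes tested, 4 were higher in the cells without Cd8a, namely Foxp3, Ctla4, Cd4 and Il1rl1, and so were 5 of 8 checkpoint and costimulatory receptors. Foxp3 had 25 UMIs in 7 of 47 cells against 3 UMIs in 1 of 77, a log2 ratio of −4.08 (−6.45 to −2.37) for cells with to cells without Cd8a. Tnfrsf4, the costimulatory receptor OX40, had 100 UMIs in 13 cells and 0 in the cells with Cd8a, at least 67.8-fold lower with Cd8a. Icos, Tnfrsf18 and Lag3 were also higher without Cd8a, at 342, 162 and 290 CPM against 45.1, 45.1 and 112 CPM. Il10 had 57 UMIs in 8 cells against 4 UMIs in 4 cells. Gzmc had 760 CPM against 48.8 CPM, a log2 ratio of −3.71 with 10 CPM added. It was −2.81 when the cell with most was left out of each group. Tyrobp had 1095 CPM against 338 CPM.

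To see what differed between the genotypes without selecting on cytotoxic genes, all T cells were compared, 203 in WT and 83 in KO, a comparison added after the data had been seen. Of 7018 genes tested, 156 were higher in KO (2.22%) and 541 lower (7.71%), with a median log2 ratio of −0.19. In a sum over cells, fewer cells of a type and less RNA per cell cannot be told apart. Here the number of cells that met the rule itself differed between the libraries. Gzma fell from 13137 UMIs in 105 WT cells to 2 UMIs in 2 KO cells, a log2 ratio of −11.53 (−14.58 to −9.68). Gzmb had 1551 (WT) and 33.0 CPM (KO), a log2 ratio of −5.55 (−6.31 to −4.89). Cd8a had 280 (WT) and 36.7 CPM (KO), and Ccl5 7363 (WT) and 1531 CPM (KO).

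Other members of the same programmes were lower in KO T cells. Of 14 granule genes tested beside those of the rule, 9 were lower and none higher, with a median log2 ratio of −1.41. Nkg7 had a log2 ratio of −2.16 (−2.46 to −1.87) and Serpinb6b of −2.77 (−3.55 to −2.08). Of 16 residence genes, 8 were lower, with Itgae at 25.7 CPM in KO against 494 CPM in WT, a log2 ratio of −4.27 (−5.15 to −3.51), and Itga1 at 40.3 against 323 CPM. Cell cycle genes were lower in 13 of 15, with Mki67 at 6 UMIs in KO and 170 UMIs in WT. Trdc was lower at 77.0 against 209 CPM, and Tcrg-C1 at 62.3 against 200 CPM. Trac (434 and 376 CPM), Trbc2 (851 and 770 CPM) and Cd69 (785 and 749 CPM) were near equal.

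Ifng, encoding interferon gamma, had 20.2 CPM in KO and 210 CPM in WT T cells, a log2 ratio of −3.38 (−4.40 to −2.51), and 7 of 14 interferon-stimulated genes tested were lower, among them Irf1 (67.8 and 153 CPM), and none was higher. Ifng was also lower in the other T cells, at 25.0 CPM in KO and 220 CPM in WT. Lag3 was likewise lower there, with 1 UMI in KO and 33 in WT. Naive and recirculation genes were higher in KO in 5 of 7, with Lef1 at 238 against 55.3 CPM and S1pr1 at 301 against 93.2 CPM. Runx3 had 192 CPM in KO and 238 CPM in WT T cells, a log2 ratio of −0.30 (−0.64 to 0.02).

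Transcripts of other cell types moved with the genotype in the same T cells. Among dendritic cell markers, 6 of 7 tested were higher in KO, with Cd74 at 1807 against 181 CPM, and 1, Itgax, was lower. The Cd74 log2 ratio of 3.32 became −0.027 without the cells that held 2 or more UMIs of Lyz2, Csf1r, Itgam, Itgax, Flt3 and Ms4a1. Cxcl2 and S100a9, genes of macrophages and neutrophils, had 517 and 89.8 CPM in KO against 57.7 and 3.30 CPM in WT. Immunoglobulin genes were lower in KO. So were 3 of 4 epithelial markers tested (Cdh1, Krt19 and Krt8), with 0 higher and a median log2 ratio of −1.45. The part of these transcripts in the comparison was not tested.

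The lower granzyme levels of KO T cells were not seen in the Cd3-negative cells with Ncr1 or Klrb1c. There Gzma had 5976 (WT) and 7472 CPM (KO), in 12 of 15 and 18 of 19 cells. Gzmb had 1128 and 1837 CPM, and Ccl5 5454 and 18814 CPM, a log2 ratio of 1.79 (1.65 to 1.93). In other T cells Ccl5 was also higher in KO, at 1455 CPM in 22 of 64 cells against 467 CPM in 16 of 64 in WT.

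**Figure D4:**
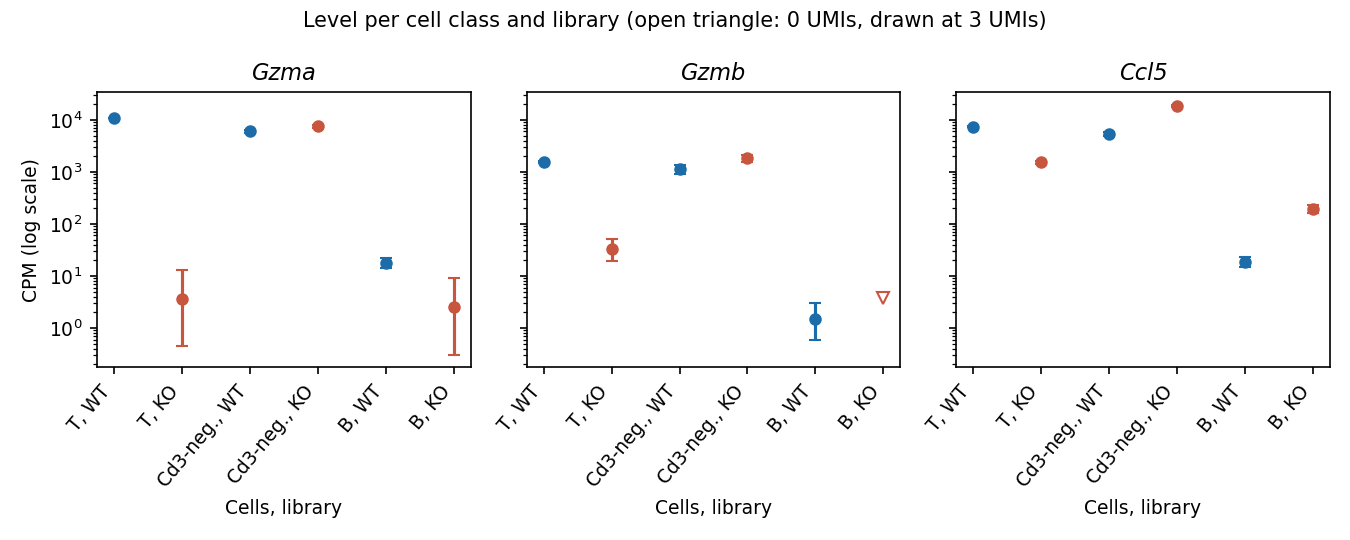
Level of Gzma, Gzmb and Ccl5 (CPM, log scale) in all T cells, Cd3-negative cells with Ncr1 or Klrb1c, and B cells of the WT and KO libraries. Points are summed UMIs of 1 library, bars the exact 95% Poisson interval, and the open triangle a class with 0 UMIs drawn at 3 UMIs. Gzma in T cells was 10836 (WT) and 3.67 CPM (KO), while the Cd3-negative cells had 5976 and 7472 CPM.

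The 8 KO cells that met the rule are called here by the rule, since granule genes outside it were not higher than in KO other T cells. Of 6 such genes tested, 0 were higher and 1 lower. Of all 3143 genes tested outside the rule in this KO comparison, 103 were higher and 150 lower. With so few higher over all genes, 0 of 6 does not set the granule genes apart. The log2 ratio against KO other T cells was −0.80 (−1.20 to −0.42) for Ccl5. For Nkg7 it was −0.50 (−1.69 to 0.51), an interval that spans 0. No cell held both Cd8a and a granzyme. Of the 8 cells, 5 had Cd8a alone, 2 Gzmb alone and 1 both granzymes, with 2 to 6 such UMIs each. All 8 held Trac and none Trdc (exact upper limit 36.9% of cells, which covers the WT share of 35.5%). Cells d and e, with 3 and 4 Cd8a UMIs, held 9 and 19 Ccr7 and 4 and 4 Lef1 UMIs, genes of naive T cells, and no Ccl5. Cells b and g, with 3 and 2 Cd8a UMIs, held 17 and 41 Ccl5 UMIs and no Ccr7, and cell g also held 19 Xcl1 and 5 Klrd1 UMIs. Cell c, with 2 Cd8a UMIs, held 3 Ccr7 and 5 Lef1 UMIs, and also 33 Cd74, 6 Lyz2 and 4 Itgam UMIs, genes of antigen-presenting and myeloid cells.

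The 3 KO cells with a granzyme, a, f and h, all carried Foxp3, with 5, 2 and 3 UMIs. Cell a held 5 Gzmb, 1 Gzma and 34 Ctla4 UMIs. Cells f and h held 208 and 262 UMIs of Cd74 and 100 and 109 of H2-Aa, both for antigen presentation on MHC class II, in the largest totals of the 8 cells at 19587 and 13814 UMIs. Cell f also held 14 Klrd1 and 5 Nkg7 UMIs, the most of the 8, and the only Prf1 UMI, and cell h held 4 Klrd1 UMIs. Removal of the cells with the top 3% of doublet scores (Scrublet) took out 2 of the 8 KO cells and 1 of the 124 WT cells, while Scrublet's own threshold marked only 4 KO cells and 0 WT cells in the whole libraries. Without cells that held 2 or more UMIs of Lyz2, Csf1r, Itgam, Itgax, Flt3 and Ms4a1, the share that met the rule was 3.12% in WT and 0.199% in KO.

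**Figure D5:**
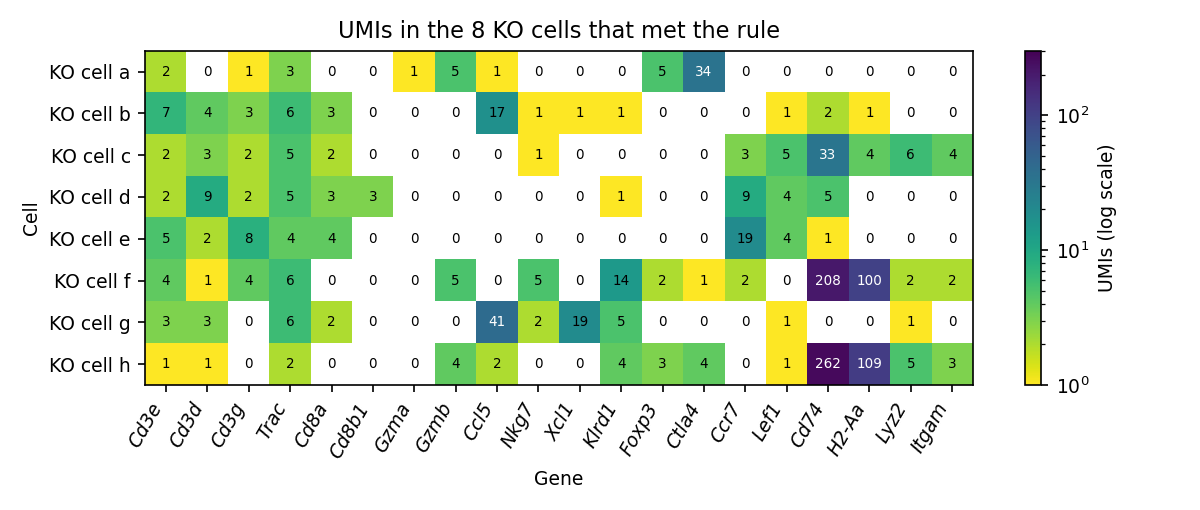
UMIs of 20 genes (columns) in each of the 8 KO cells that met the rule (rows), with the count printed in the cell and its colour on a log scale. Cells b and g hold 17 and 41 Ccl5 UMIs, and cells a and h hold 1 and 2. Cells c, d and e hold Ccr7 and Lef1 together, and cells f and h hold high Cd74 and H2-Aa.

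Summed over these 8 cells and set against the 124 WT cells, 208 of 5313 genes tested were higher in KO (3.91%) and 335 lower (6.31%), with a median log2 ratio of −0.38. Without the genes of the rule, 208 of 5307 were higher and 330 lower. These counts were not stable. When the cell with most UMIs of each gene was left out of each group, 64 were higher and 560 lower. With 1 UMI of Cd8a, Gzma and Gzmb 610 were lower, and without cells holding other-type genes 168 were lower. The KO sum rests on 72931 UMIs against 825936 in WT. Granule genes were lower in 7 of 14, with Nkg7 at 123 against 1143 CPM, and naive genes higher in 5 of 6, with Lef1 at 219 against 13.3 CPM. Itgae had 2 UMIs in KO and 549 in WT. The 10 highest genes were Cd74, H2-Eb1, H2-Ab1, Cst3, Lef1, Slc41a1, Fem1c, Adam8, Retreg1 and Lrrc58. The first 4 belong to antigen-presenting cells. The 4 MHC class II genes measured together had 14891 CPM in KO and 454 CPM in WT. The highest single KO cell was at 39887 CPM, while the median cell had 776 CPM in KO and 301 CPM in WT. Without the cells that held 2 or more UMIs of the 6 other-type genes, the Cst3 ratio turned to −0.65 and that of H2-Aa to −1.25. The 10 lowest were Gzma, Igkc, Serpinb6b, Gzmc, Igha, Trdc, Pclaf, Ifng, Osgin1 and Mt1, where Gzma is a gene of the rule, Igkc and Igha are immunoglobulin genes and Mt1 turned to 0.25 without the exclusion genes. Runx3 had 233 CPM in KO and 224 CPM in WT, a log2 ratio of 0.06 (−0.75 to 0.78).

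The cells that met the rule were last compared with the other T cells of their own library. Of 3088 genes tested in both and outside the rule, 6 were higher in both (0.194%) and 22 lower in both (0.712%). Within WT, 339 of 5895 genes outside the rule were higher and 209 lower, and within KO 103 and 150 of 3143. Whether more genes were shared than these separate counts would give was not tested. The 6 higher in both were Tyrobp, Napsa, Ifitm3, Trf, Cmtm7 and Hmgcs1, and in KO the Tyrobp and Napsa UMIs came from 2 cells each. Without the cells that held 2 or more UMIs of Lyz2, Csf1r, Itgam, Itgax, Flt3 and Ms4a1, the KO log2 ratios of these genes were −2.19 for Tyrobp and −0.40 for Napsa, the opposite direction, and without the top 3% of Scrublet scores −2.42 and −1.06. Among the 22 were S1pr1 and Cxcr4, receptors of cell migration, with S1pr1 at log2 ratios of −1.67 (−2.27 to −1.09) in WT and −3.07 (−5.36 to −1.49) in KO. Tnfsf8 had 3 UMIs in WT cytotoxic T cells against 75 in other T cells, and 0 against 41 in KO. Tnfsf8, Ramp3, Kbtbd11 and Tbc1d4, among the 10 lowest genes in WT, were also among the 22. Of the WT marker genes, Ccl5 had 836 CPM in the 8 KO cells against 1455 CPM in KO other T cells, Nkg7 123 against 175 CPM, and Itgae 27.4 against 25.0 CPM, the first from 2 UMIs and under the floor of 41.1 CPM that 3 UMIs give.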

How the data were processed

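Single-cell 3′ libraries of colon cells from WT and KO mice were analysed, 1 library per genotype. The authors deposited unnormalized UMI counts for 31053 features in each barcode, made with Cell Ranger 3.0.2 per the file headers. The submitters' processing notes name mm10 and Seurat 4. The files hold 3185 WT and 3020 KO barcodes, fewer than the cell numbers stated by the study. The study's filter was applied (200 to 6000 genes and at most 15% mitochondrial UMIs per cell).

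UMIs were summed per cell group and library and given as CPM. Exact Poisson, Clopper-Pearson and conditional binomial 95% intervals were computed with scipy 1.17.1 and numpy 2.4.6 in Python 3.11.15. A gene was tested with at least 20 UMIs over both groups. It was called at a 2-fold change, on CPM plus 10, with its interval on 1 side of 0. The functions were tested on simulated data. No test between genotypes was made.

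Named genes were those of 21 gene lists (244 of 245 symbols matched) with at least 20 UMIs, and the 10 highest and 10 lowest per comparison with at least 5 cells in the higher group and no mitochondrial gene. The cells and lists were chosen with earlier results of these data known. Other T cell groups and the splits by Trdc, Trac and Cd8a were added after the data had been seen. Scrublet (scanpy 1.11.5) called 0 WT and 4 KO cells, too few to rely on, so doublets were removed only in an alternative that drops the top 3% of scores. Other alternatives changed cell filters, thresholds, scaling, the prior and the minimum count. Coordinates came from GENCODE M21 and promoter sequences from RefSeq, where 4 of 6 genes looked up had an entry.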

Additional observations from a re-analysis of the deposited data

Results flagged for a closer look

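For 3 genes the KO to WT change in all T cells ran opposite to that in the Cd3-negative cells with Ncr1 or Klrb1c, and the difference between the changes was not tested, since each is drawn from 1 library per genotype. For Gzma the log2 ratio was −11.53 in T cells and 0.32 in the Cd3-negative cells, a difference of −11.85. For Gzmb the values were −5.55 and 0.70, a difference of −6.26. For Ccl5 they were −2.27 and 1.79, a difference of −4.05.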

How the results depend on the processing

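The share of cells that met the rule was lower in KO in each of the 10 cell settings tried. The log2 KO to WT ratio ran from −4.39 to −2.82 among filtered cells and from −3.01 to −1.58 among T cells. The weakest values, −2.82 and −1.58, came from asking for 1 UMI of Cd8a, Gzma and Gzmb in place of 2, which also gave 610 genes lower in the KO cells that met the rule. With a limit of 3 such UMIs, 11 genes were higher in both libraries. With 1 Cd3 UMI, 249 genes were higher in all KO T cells, 353 were lower in WT cytotoxic than in other T cells, and 50 were lower in both libraries, and Tyrobp turned to −0.35 in KO. Without the exclusion genes, 325 genes were higher in all KO T cells and 12 higher and 36 lower in both libraries, Mt1 turned to 0.25 in the cells that met the rule and Ccl4 to 0.72 in all T cells. Without cells that held 2 or more UMIs of the other-type genes, 168 genes were lower in the KO cells that met the rule and 2 higher and 9 lower in both libraries. The KO to WT ratio of H2-Aa was then −1.25, of Cst3 −0.65 and of Hspa1a −3.58 in the cells that met the rule and of Cd74 −0.027 in all T cells. The KO ratio of the cells that met the rule to other T cells was −2.19 for Tyrobp and −0.40 for Napsa. In the main setting each of these genes, Hspa1a among them, was higher in the same comparison. Without the top 3% of Scrublet scores, 215 genes were lower in the KO cells that met the rule and 2 higher and 12 lower in both libraries. Tyrobp was then at −2.42, Napsa at −1.06 and Hspa1a at −3.10. Thinning gave Cd8a in 44.3%, Trdc in 26.4% and Trac in 45.3% of WT members.

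With CPM free of mitochondrial, ribosomal protein and immunoglobulin genes, 251 genes were higher in all KO T cells. A prior of 1 CPM gave 246 higher and 844 lower there. With at least 50 UMIs per gene, fewer genes were tested. Then 117 were higher in the KO cells that met the rule, 83 higher and 342 lower in all KO T cells, 181 higher and 107 lower in WT cytotoxic against other T cells, 14 higher and 50 lower in Trdc cells, 83 higher and 69 lower with Cd8a, and 1 higher and 10 lower in both libraries. With at least 10 UMIs, 111 were higher in Trdc cells and 12 in both libraries. When the cell with most UMIs of each gene was left out of each group, 64 genes were higher and 560 lower in the KO cells that met the rule. Then 29 were higher in Trdc cells and 2 higher in both libraries. The cause of these shifts was not tested beyond the number of genes and cells that each setting keeps. No paired analysis was possible because each genotype has 1 library. The 8 KO cells and their 72931 UMIs limit each KO value for the cells that met the rule.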
